A study of Mus musculus with 10 samples.

Results

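The genes described are 9 mouse genes that sense foreign RNA or respond to interferon: Tlr3, Ifih1, Irf7, Ifit1, Ifit3, Isg15, Oasl2, Bst2 and Ifitm3. They were listed by symbol, and all 9 were found among the 48709 genes of the deposited count tables. The RNA came from primary hippocampal neurons of the mouse, cultured to day 10 in vitro and then given lipid nanoparticles loaded with RNA for 48 hours, to day 12. The control group took up nanoparticles with scramble RNA (2 libraries), and the others took up nanoparticles with anti-miR-409-5p or anti-miR-501-3p, RNAs directed against the microRNAs miR-409-5p and miR-501-3p (4 libraries each). All 10 libraries thus carried nanoparticle RNA, and no library analysed here came from cells without nanoparticles, so a response shared by all groups cannot be seen as a difference between them. The labels give neither mouse strain nor donor age, and do not say whether replicates were separate cultures, so p-values here measure only the spread between libraries, which may be technical.

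Cells recognise foreign RNA through sensors in different compartments: TLR3 binds double-stranded RNA in endosomes, and RIG-I (Ddx58) and MDA5 (Ifih1) bind RNA in the cytosol. These sensors activate the transcription factors IRF3, IRF7 and NF-kB, which switch on interferon genes. Secreted interferon binds the receptor IFNAR, and through JAK kinases a complex that includes STAT2 and IRF9 turns on interferon-stimulated genes such as Ifit1, Ifit3, Isg15, Oasl2, Bst2 and Ifitm3. In brain cultures both neurons and glia can mount this response.

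The complex with STAT2 and IRF9 binds a DNA element built on a repeated GAAA. The pattern of GAAA, any 2 bases and a second GAAA, or on the opposite strand TTTC, any 2 bases and a second TTTC, was searched in RefSeq promoters of build GRCm38.p6, from 250 bases before to 50 bases after each gene's start. The pattern was present in 6 of the 9 genes (Ifit1, Ifit3, Isg15, Ifih1, Bst2 and Ifitm3). It was in 3.99% of the 27025 genes with a promoter entry, and in 3.44% of all 32851 promoters of the same length. Of other interferon-stimulated genes listed for this report, 16 of 45 with a promoter entry held it (35.6%). So did 4 of 19 listed interferon, receptor and signalling genes, 3 of 17 sensors and adaptors, and 0 of 11 NF-kB and inflammatory genes. The pattern is shown for those of the 9 genes in which it lies before the start, in capitals and read 5′ to 3′ on the gene's strand.
Ifit1, pattern at chr19:34640785-34640794, plus strand: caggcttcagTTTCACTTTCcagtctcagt
Ifit3, pattern at chr19:34583373-34583382, plus strand: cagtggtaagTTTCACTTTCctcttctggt
Isg15, pattern at chr4:156200881-156200890, minus strand: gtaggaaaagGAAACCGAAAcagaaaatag
Bst2, pattern at chr8:71537587-71537596, minus strand: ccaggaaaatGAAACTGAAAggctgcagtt
Ifit1 and Ifit3 each held a further match, Isg15 held 3 that overlap one another and Bst2 held 2 that overlap. In Ifih1 and Ifitm3 the pattern lay after the start. The windows of Irf7, Oasl2 and Tlr3 did not hold these letters. A match is a description of the letters and not evidence of binding.

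The mature microRNAs that the anti-miRs target are shown with the seed (bases 2 to 8) in capitals, from RefSeq on the same build, because a gene whose 3′ UTR matches the seed is a possible direct target.
miR-409-5p, chr12:109743172-109743194, plus strand: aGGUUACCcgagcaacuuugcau
miR-501-3p, chrX:7241270-7241291, minus strand: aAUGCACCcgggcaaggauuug
The 3′ UTRs of the 9 genes were searched for the match to bases 2 to 8 and for the match to bases 2 to 7 followed by A. None held a miR-409-5p match (GGTAACC or GTAACCA), and 1 held a miR-501-3p match (GGTGCAT or GTGCATA).
Oasl2, from position 137 of its 867-base 3′ UTR: gggcagtggtGGTGCATgcctttatct
Among the 14212 tested genes with a 3′ UTR, 9.85% held a match for miR-409-5p and 13% for miR-501-3p. The levels of the microRNAs themselves were not analysed here.

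At baseline the 9 genes were scarce. Levels are in CPM, the field's usual measure of a gene's counts relative to the library total, scaled from here on by the TMM factors of edgeR. Together the 9 genes received 3212 of 283948039 counts over the 10 libraries, or 11.3 CPM before scaling, and between 239 and 366 counts in each library. Library totals ran from 22254788 to 32096808 counts. A level of 3 counts, set as the floor for a gene without counts, thus corresponded to 0.0951 to 0.136 CPM in a library. Tlr3, with a long transcript, supplied 48.9% to 58.3% of the counts of the 9 genes in each library. Intervals on counts are exact 95% Poisson intervals, computed apart from that floor of 3 counts, and cover counting error only.

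Levels of different genes were compared per kilobase of exon (CPM per kb), as the mean of both control libraries. Ifitm3, a membrane protein that blocks virus entry, was the highest at 3.17 ± 0.11 CPM per kb (SD, n = 2). Bst2 (tetherin, which holds budding virus at the cell surface) followed at 1.15 ± 0.16, and Tlr3 at 1.03 ± 0.13, and these neighbours overlapped in their control libraries. Isg15, a ubiquitin-like protein that is attached to other proteins, stood at 0.341 ± 0.017 CPM per kb, and Oasl2, a relative of the 2′-5′ oligoadenylate synthetases, at 0.132 ± 0.013.

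The remaining 4 genes formed the bottom of the order with levels that overlapped between neighbours: Ifit3 at 0.0880 ± 0.0380, Ifit1 at 0.0649 ± 0.0029, Irf7 at 0.0595 ± 0.0091 and Ifih1 at 0.0585 ± 0.0272 CPM per kb. Over 21695 protein-coding genes the median control level was 1.29 CPM per kb, and 21.1% had no count in control. On that scale Ifitm3 stood at percentile 59.9, Bst2 at 49.1, Tlr3 at 48.3, Isg15 at 41.0, Oasl2 at 36.1 and the last 4 genes between 31.9 and 33.9. Ifitm3 was thus the 1 gene of the 9 above the median of all protein-coding genes.

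The order depends in part on the length used. With the longest principal transcript in place of all exons, an alternative chosen after seeing the data, Irf7 rose to the sixth place at 0.117 CPM per kb, Oasl2 moved to 0.270 and Ifih1 to 0.0873, and Ifit1 became the last. The first 5 genes kept their places.

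**Figure D1:**
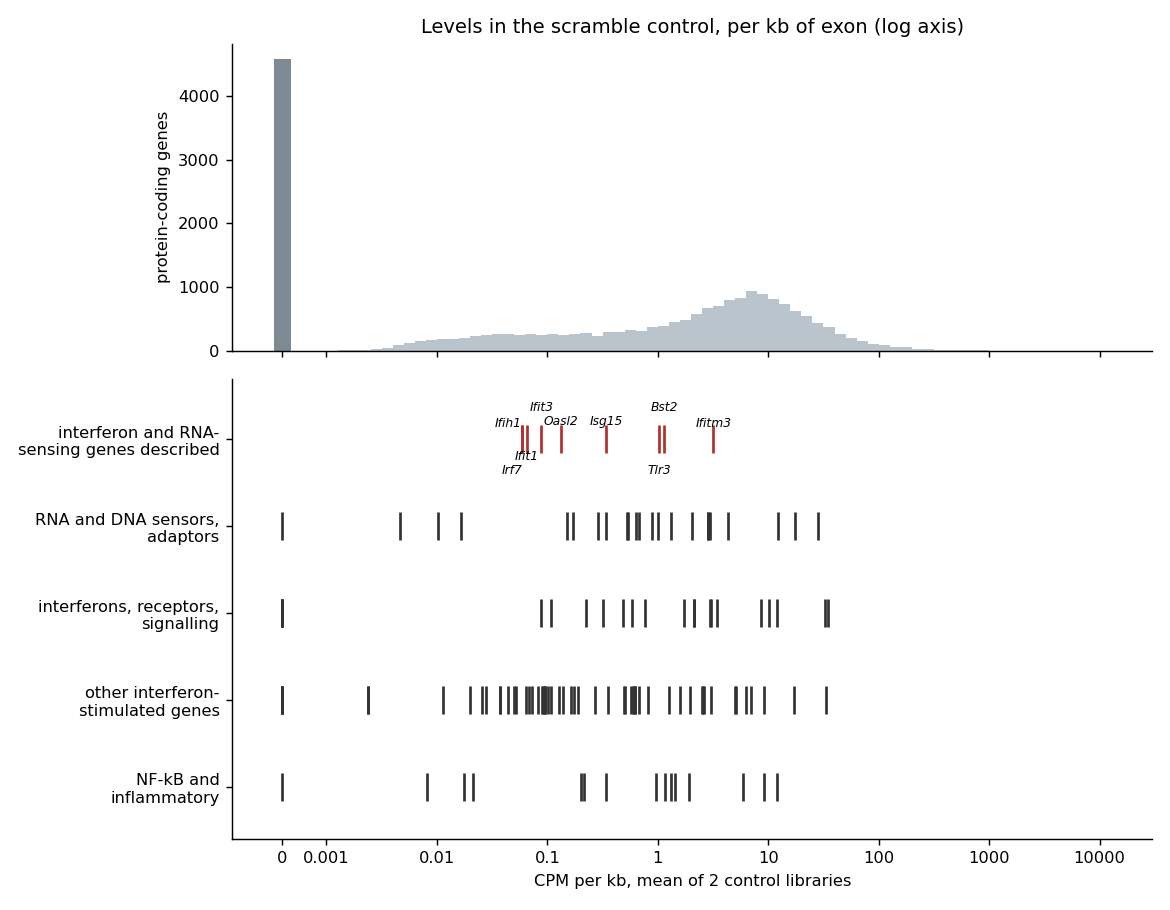
The upper histogram counts protein-coding genes by mean level in the 2 control libraries (CPM per kb of exon, log axis, genes without a count at 0), and each tick below is 1 gene of the list named on the left. The interferon and RNA-sensing genes described lie between 0.0585 (Ifih1) and 3.17 (Ifitm3) CPM per kb, on the left of the main peak of the histogram.

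The receptors, kinases, sensors and adaptors named next had control levels within or above that range. Other listed genes upstream lay below it: Tlr7 at 0.0166, Tlr9 at 0.0102 and Tlr8 at 0.00466 CPM per kb. The sensor Zbp1 and the receptor Ifnlr1 had 0 counts in control. The receptor subunits Ifnar1 and Ifnar2 stood at 12.0 and 3.05 CPM per kb, the kinase Jak1 at 34.7, Stat2 at 8.58 and Irf9 at 2.12. Among the sensors and their adaptors, Tbk1 (the kinase that phosphorylates IRF3) was at 12.1, Irf3 at 4.31, Mavs (the mitochondrial adaptor of RIG-I and MDA5) at 2.84, Eif2ak2 (PKR, a kinase activated by double-stranded RNA) at 2.03 and Ddx58 at 0.531 CPM per kb. Interferon transcripts themselves were at the floor: Ifnb1 had 0 counts in both control libraries and 1 count in 1 of the other 8, and Ifna4 had 0 counts in all 10.

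The labelled cell type was checked against markers. Summed neuron markers (9 genes) ran from 8087 to 8222 CPM in control, 8477 to 8841 with anti-miR-409-5p and 8271 to 8844 with anti-miR-501-3p. All 8 anti-miR libraries thus lay above both controls in this sum. How often sums of other genes separate in this way was not counted, and single neuron markers were called in both directions, as given below. Astrocyte markers (7 genes) ran from 2305 to 2334, 2304 to 2394 and 2211 to 2320 CPM in the same order, so RNA of these genes was present in every library. Markers of microglia and macrophages (14 genes) summed to 28.9 to 31.6 CPM in control, 26.9 to 30.1 with anti-miR-409-5p and 29.1 to 33.1 with anti-miR-501-3p, and 7 of the 14, Cx3cr1, P2ry12, C1qb, C1qc, Trem2, Tyrobp and Itgam, had at most 12 counts in every library. Endothelial, mural and fibroblast markers (12 genes) summed to 254 to 356 CPM in control, 236 to 307 with anti-miR-409-5p and 298 to 362 with anti-miR-501-3p. Oligodendrocyte lineage markers (7 genes) summed to 139 to 231, 145 to 185 and 106 to 183 CPM in the same order. Which cells the transcripts of the 9 genes came from was not tested, and in bulk RNA fewer cells of a type and less RNA per cell cannot be told apart.

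None of the genes that could be tested passed the test of a difference between an anti-miR and the control. After the filter on low counts 6 of the 9 were tested (Tlr3, Ifih1, Isg15, Oasl2, Bst2 and Ifitm3), and Ifit1, Ifit3 and Irf7 were too low. With edgeR's quasi-likelihood test at an adjusted p of 0.05, 0 of 6 were called under anti-miR-409-5p, against 27.8% of all 16884 genes tested. Under anti-miR-501-3p 0 of 6 were called, against 33% of all genes. At an unadjusted edgeR p of 0.05 the counts were 0 under anti-miR-409-5p and 1 (Tlr3) under anti-miR-501-3p. Of all 16884 tested genes, 6610 and 7195 were under that p. DESeq2, which gave an adjusted p for Tlr3 and Ifitm3 alone, called 0 in each comparison. Both comparisons share the 2 control libraries, and leaving out control replicate 1 lowered the share of all genes called to 7.48% and 10.3%, with 0 of the 6 tested genes called. The low number of counts sets wide intervals, so the fold changes that remain possible are given for each gene.

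Some markers of cell types were called in the same comparisons, in which 27.8% (anti-miR-409-5p) and 33% (anti-miR-501-3p) of all tested genes were called. With the GC and length trend of each library removed, 7.53% and 10.1% of all genes were called, and marker calls under that setting are not given here. All 9 neuron markers were tested: with anti-miR-409-5p edgeR called 5 above control and 3 below it, and with anti-miR-501-3p 4 above and 3 below. All 7 astrocyte markers were tested: 3 were called above control and 1 below with anti-miR-409-5p, and 2 above and 3 below with anti-miR-501-3p. Of 7 tested microglia and macrophage markers 0 were called in either comparison. Of 10 tested endothelial, mural and fibroblast markers 1 was called below control with anti-miR-409-5p and 2 above it with anti-miR-501-3p, and of 7 oligodendrocyte lineage markers 1 was called, above control with anti-miR-501-3p. The part of these markers in the values of the interferon and pathway genes was not tested.

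**Figure D2:**
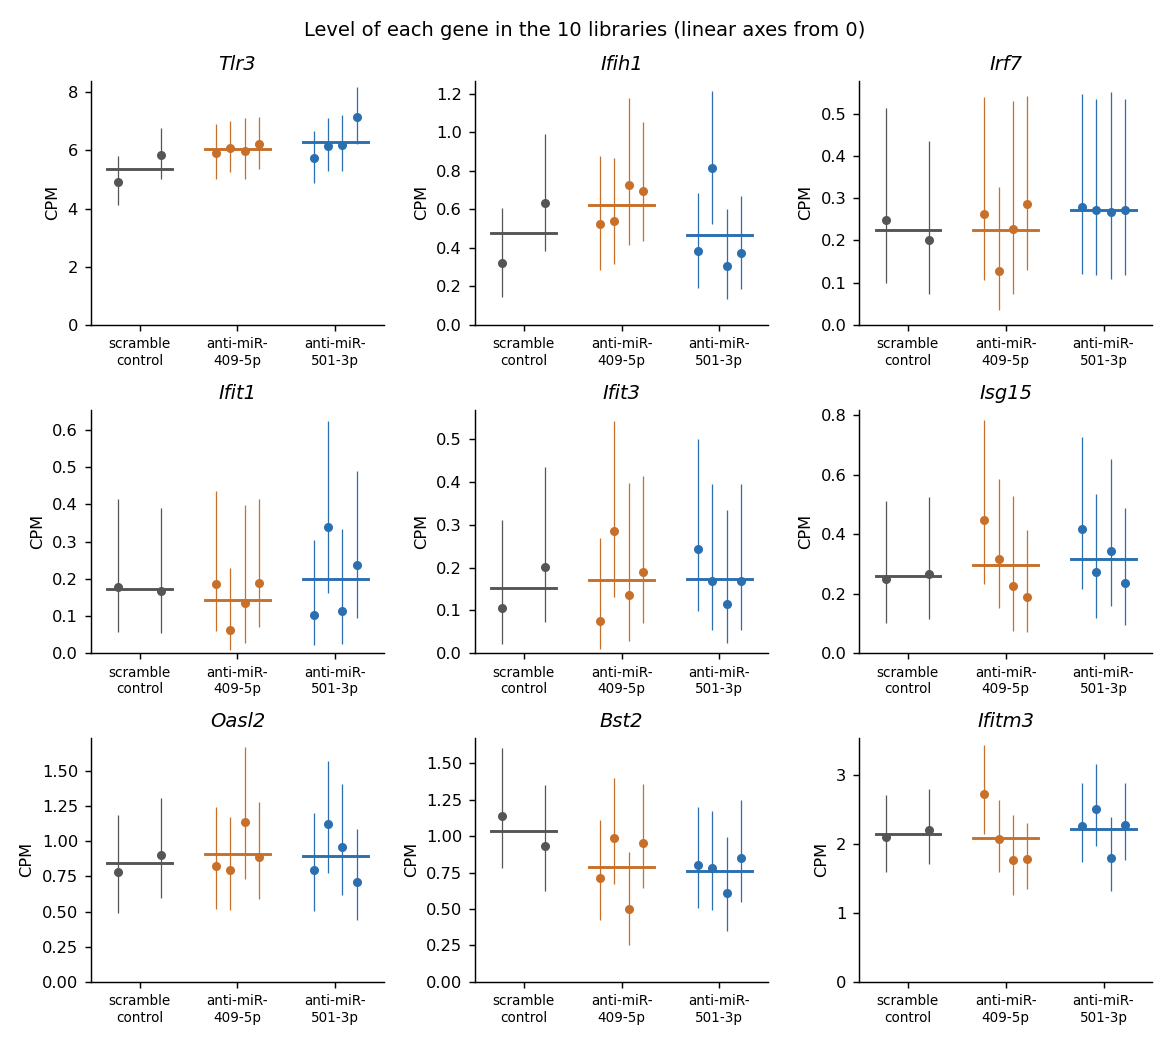
Each panel shows 1 gene, with CPM on a linear axis from 0, points for the 10 libraries in order of replicate number, thin lines for the exact 95% Poisson interval of each count and thick lines for the group mean. The anti-miR-409-5p points of Tlr3 (5.90 to 6.21 CPM) all lie above both control points (4.91 and 5.85), and the anti-miR-501-3p points of Bst2 (0.612 to 0.848) all lie below both control points (1.14 and 0.935). The share of all tested genes that separate in this way was not counted.

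Of the RNA sensors, Tlr3 was the best measured gene, with 132 to 211 counts per library. Tlr3 (ENSMUSG00000031639, chr8:45395665-45411080, minus strand, GRCm38) was at 4.91 and 5.85 CPM in control, at 5.90, 6.10, 5.99 and 6.21 CPM with anti-miR-409-5p and at 5.73, 6.15, 6.20 and 7.15 CPM with anti-miR-501-3p. All 4 libraries with anti-miR-409-5p and 3 of the 4 with anti-miR-501-3p lay above both controls. How many of all tested genes separate from control in this way was not counted, while 27.8% and 33% of them were called. The log2 fold change was 0.17 ± 0.11 (SE; 95% interval -0.059 to 0.40) with anti-miR-409-5p, with an edgeR adjusted p of 0.265. With anti-miR-501-3p it was 0.23 ± 0.11 (0.0011 to 0.46), with an edgeR p of 0.0490 before and 0.115 after adjustment. The intervals of the fold ran from 0.960 to 1.32 and from 1.00 to 1.37, so that the largest rise they hold is 1.37-fold. Without control replicate 1 the log2 fold changes were 0.065 and 0.12, and without control replicate 2 they were 0.31 and 0.37, all with an edgeR adjusted p above the threshold.

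The sign of the Tlr3 estimates depended on whether the GC and length trend of each library was removed. Its transcripts hold 40.0% GC, against a median of 49.5% over the tested genes, and the libraries differed in how counts depended on GC: the slope of log2 CPM per 10 points of GC was 0.197 to 0.263 in control and -0.127 to 0.037 in the 8 anti-miR libraries. With the GC and length trend of each library removed, the log2 fold change of Tlr3 turned to -0.15 with anti-miR-409-5p (edgeR adjusted p = 0.478) and -0.14 with anti-miR-501-3p (edgeR adjusted p = 0.475). Because the slopes of control and anti-miR libraries did not overlap, removing the trend may also remove an effect of treatment. The GC trend and treatment cannot be told apart here. An antisense gene, Gm45542, overlaps the exons of Tlr3 by 381 bases, and since the kit does not mark strand, reads of both cannot be told apart there.

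Ifih1, which encodes MDA5 (ENSMUSG00000026896, chr2:62595798-62646255, minus strand), had 8 to 24 counts per library. Its level was 0.320 and 0.635 CPM in control, 0.523, 0.540, 0.726 and 0.697 CPM with anti-miR-409-5p and 0.382, 0.815, 0.306 and 0.373 CPM with anti-miR-501-3p. The 2 control libraries stood far apart, and all 3 groups overlapped. The log2 fold change was 0.36 ± 0.38 with anti-miR-409-5p (edgeR adjusted p = 0.527) and -0.024 ± 0.40 with anti-miR-501-3p (edgeR adjusted p = 0.972). The intervals of the fold ran from 0.738 to 2.22 and from 0.553 to 1.75, and so hold sizeable changes in either direction. The variance of Ifih1 over the 10 libraries was 1.75 times that of counting noise, the largest ratio of the 9 genes, with no test of the excess.

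Irf7, the transcription factor that amplifies the interferon response (ENSMUSG00000025498, chr7:141262706-141266481, minus strand), had 7 and 6 counts in control. It had 7, 4, 5 and 9 counts with anti-miR-409-5p and 8, 8, 7 and 8 with anti-miR-501-3p. The ratio of summed counts to control, corrected for library size, was 0.998 (exact 95% interval 0.492 to 2.12) with anti-miR-409-5p and 1.22 (0.618 to 2.53) with anti-miR-501-3p. In CPM the 4 libraries with anti-miR-501-3p (0.268 to 0.278) lay just above both controls (0.249 and 0.200), a gap smaller than the value of 1 count. As for Tlr3, the share of genes that separate in this way was not counted.

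The effectors Ifit1 and Ifit3, which bind foreign RNA ends or help to do so, lie near each other on chromosome 19 (Ifit1 ENSMUSG00000034459, chr19:34640871-34650009, and Ifit3 ENSMUSG00000074896, chr19:34583531-34588731, both on the plus strand). Ifit1 had 5 counts in each control library, 5, 2, 3 and 6 with anti-miR-409-5p and 3, 10, 3 and 7 with anti-miR-501-3p. Ifit3 had 3 and 6 counts in control, 2, 9, 3 and 6 with anti-miR-409-5p and 7, 5, 3 and 5 with anti-miR-501-3p. No group stood above another for either gene, and neither reached more than 10 counts in a library.

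For Ifit1 the ratio to control was 0.831 (exact 95% interval 0.354 to 2.05) with anti-miR-409-5p and 1.17 (0.537 to 2.76) with anti-miR-501-3p. For Ifit3 it was 1.15 (0.502 to 2.88) and 1.13 (0.493 to 2.83). The largest rise that these intervals hold is 2.88-fold, and they cover counting error only. Ifit3 is uncertain, because 51.2% of its 50-base stretches also occur in its copy Ifit3b, and Ifit1 shares 7.13% with Ifit1bl1 and Ifit1bl2. When the filter on low counts was left out, edgeR called neither gene nor Irf7, with adjusted p between 0.809 and 1.

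Isg15 (ENSMUSG00000035692, chr4:156199424-156200818, minus strand) had 5 to 12 counts per library. It was at 0.249 and 0.267 CPM in control, at 0.448, 0.318, 0.227 and 0.190 with anti-miR-409-5p and at 0.417, 0.272, 0.344 and 0.237 with anti-miR-501-3p. Control sat within the range of both other groups. The log2 fold change was 0.19 ± 0.43 with anti-miR-409-5p (95% interval -0.72 to 1.09, edgeR adjusted p = 0.789) and 0.29 ± 0.42 with anti-miR-501-3p (-0.60 to 1.18, edgeR adjusted p = 0.651). With 1 surrogate variable in the fit the estimates were 0.87 and 1.17 on the log2 scale (edgeR adjusted p = 0.406 and 0.360). Isg15 shares 3.96% of its 50-base stretches with another locus.

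Oasl2 (ENSMUSG00000029561, chr5:114896936-114912234, plus strand), the gene with the miR-501-3p match shown above, was at 0.783 and 0.902 CPM in control. It was at 0.822, 0.794, 1.13 and 0.887 CPM with anti-miR-409-5p and at 0.799, 1.12, 0.956 and 0.712 CPM with anti-miR-501-3p. The groups overlapped throughout. The log2 fold change was 0.087 ± 0.25 with anti-miR-409-5p (edgeR adjusted p = 0.841) and 0.086 ± 0.25 with anti-miR-501-3p (edgeR adjusted p = 0.830), with an interval of the fold of 0.741 to 1.52 in each. The largest rise of Oasl2 that the interval holds was thus 1.52-fold.

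Of the membrane effectors, Bst2 (ENSMUSG00000046718, chr8:71534255-71537456, minus strand) was the gene with the lowest estimates. It was at 1.14 and 0.935 CPM in control, at 0.710, 0.985, 0.499 and 0.951 CPM with anti-miR-409-5p and at 0.799, 0.781, 0.612 and 0.848 CPM with anti-miR-501-3p. All 4 libraries with anti-miR-501-3p lay below both controls, and 2 of 4 did so with anti-miR-409-5p. The share of all tested genes that separate in this way was not counted. The log2 fold change was -0.44 ± 0.26 with anti-miR-501-3p (95% interval -0.97 to 0.10, edgeR adjusted p = 0.208) and -0.35 ± 0.25 with anti-miR-409-5p (-0.88 to 0.18, edgeR adjusted p = 0.325). Bst2 transcripts hold 55.3% GC, above the median, and with the GC and length trend removed the values were -0.24 and -0.16.

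Ifitm3 (ENSMUSG00000025492, chr7:141009586-141010770, minus strand) was at 2.10 and 2.20 CPM in control, at 2.73, 2.07, 1.77 and 1.77 CPM with anti-miR-409-5p and at 2.26, 2.51, 1.80 and 2.27 CPM with anti-miR-501-3p. Both anti-miR groups spread to each side of control. The log2 fold change was -0.046 ± 0.19 with anti-miR-409-5p (95% interval -0.44 to 0.34, edgeR adjusted p = 0.885) and 0.043 ± 0.18 with anti-miR-501-3p (-0.34 to 0.43, edgeR adjusted p = 0.889). Ifitm3 shares 10% of its 50-base stretches with Ifitm1, Ifitm2 and pseudogenes, so part of its count is uncertain.

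**Figure D3:**
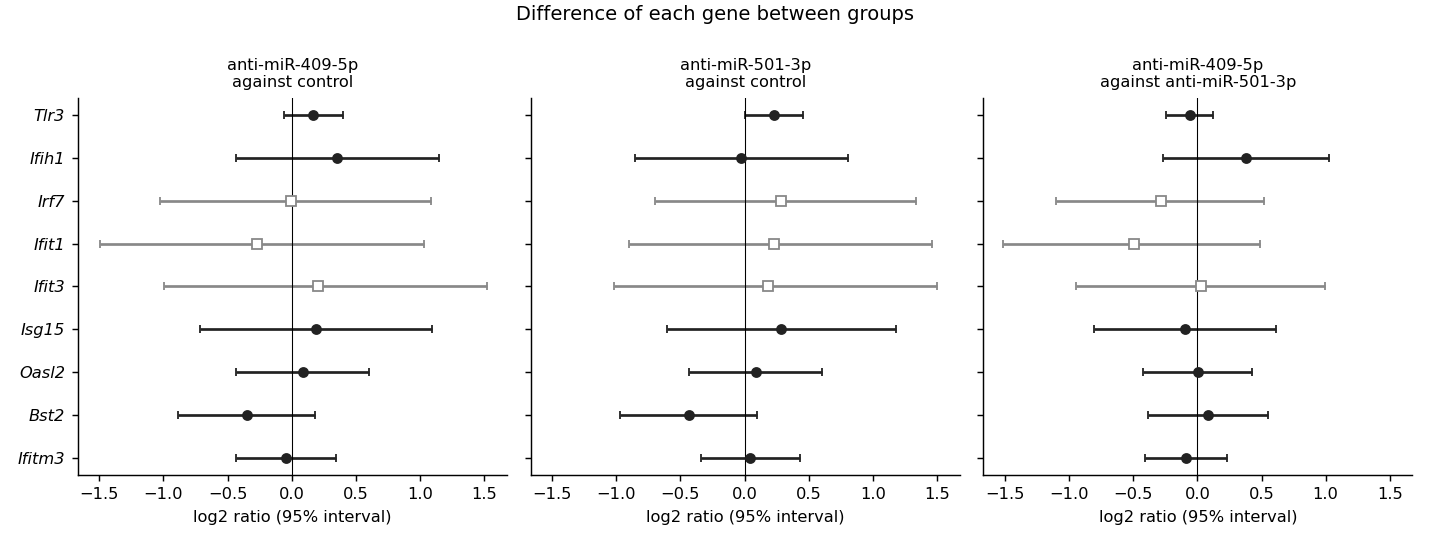
Log2 ratios with 95% intervals for the 3 comparisons: filled circles are edgeR fold changes of the 6 tested genes, and open squares are ratios of summed counts with exact counting intervals for Irf7, Ifit1 and Ifit3. Every interval spans 0 except that of Tlr3 under anti-miR-501-3p, whose lower end is 0.0011 and whose adjusted p is 0.115.

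Between the anti-miRs no difference was called in these genes either. Of the 6 tested genes edgeR called 0 between the anti-miR groups, where 0% of all genes were called. At an unadjusted edgeR p of 0.05 there were 0 of 6, against 992 of all 16884 genes, and DESeq2 called 0. The largest estimate was that of Ifih1, 0.38 ± 0.31 on the log2 scale and higher with anti-miR-409-5p, with an edgeR adjusted p of 0.889. The narrowest was that of Tlr3, -0.059 ± 0.087 (95% interval -0.24 to 0.12). For the other 4 tested genes the estimates lay between -0.098 and 0.084. With the replicate number as a block, 1.49% of all genes were called in this comparison and 0 of the 6 tested genes.

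Other genes of the pathway were taken from 4 lists with 116 genes in all, of which 85 were tested. The lists hold sensors with their adaptors, interferons with their receptors and signalling proteins, further interferon-stimulated genes, and NF-kB and inflammatory genes. Under anti-miR-409-5p 11 of 85 passed the test (12.9%, against 27.8% of all genes), 4 higher and 7 lower where 15.6% and 12.2% of all genes were, with a median log2 fold change of -0.052 against -0.012 over all tested genes. Under anti-miR-501-3p 13 of 85 passed (15.3%, against 33%), 5 higher and 8 lower where 17.6% and 15.4% of all genes were, with a median of -0.0053 against -0.012. The split leaned further to lower calls under other scalings, with 2 higher and 12 lower (anti-miR-409-5p) and 2 and 9 (anti-miR-501-3p) under upper-quartile scaling, and 2 and 14, and 1 and 9, under scaling by total counts. Between the anti-miRs edgeR called 0 of 85, and DESeq2 called 0. At an unadjusted edgeR p of 0.05 there were 2 of 85, against 992 of all 16884 genes.

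These counts changed when single libraries were left out or the GC trend was removed. Under anti-miR-409-5p the count fell to 3 without control replicate 1, 4 without control replicate 2, 7 without anti-miR-409-5p replicate 3 and 5 without its replicate 4. Under anti-miR-501-3p it fell to 1 and 6 without control replicates 1 and 2, and to 8, 8 and 7 without anti-miR-501-3p replicates 2, 3 and 4. With the GC and length trend removed, 2 and 1 genes were called, of which 1 (Trim21) and 0 were among the calls above, while 7.53% and 10.1% of all genes were called. With 1 surrogate variable in the fit, 0 and 1 genes of the lists were called, and 6.5% and 4.8% of all genes.

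Among 19 tested sensors and adaptors, 1 rose and 1 fell under anti-miR-409-5p (10.5%, against 27.8% of all genes). Under anti-miR-501-3p 1 rose and 2 fell (15.8%, against 33%). Adar, which edits double-stranded RNA and keeps the cell's own RNA from being sensed, fell under both, by 0.13 ± 0.039 (edgeR adjusted p = 0.0233) and by 0.14 ± 0.039 (edgeR adjusted p = 0.00892) on the log2 scale. Traf6, a ubiquitin ligase downstream of Toll-like receptors, rose under anti-miR-409-5p by 0.20 ± 0.062 (edgeR adjusted p = 0.0210). Irf3 fell under anti-miR-501-3p by 0.30 ± 0.084 (edgeR adjusted p = 0.0112), and Eif2ak2 rose there by 0.21 ± 0.077 (edgeR adjusted p = 0.0471). The calls of Adar and Traf6 were lost without either control replicate, and under anti-miR-409-5p also without its replicate 2 or 3 (Adar) or 4 (Traf6). That of Irf3 was lost without control replicate 1, and that of Eif2ak2 without any 1 library except replicate 1 of either anti-miR. Ddx58, the sensor RIG-I, did not pass, with 0.085 ± 0.12 and 0.22 ± 0.12.

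Among 18 tested interferon, receptor and signalling genes, 1 rose and 2 fell under anti-miR-409-5p (16.7%, against 27.8% of all genes). Under anti-miR-501-3p 1 rose and 3 fell (22.2%, against 33%). The kinase gene Jak2 rose by 0.20 ± 0.045 (edgeR adjusted p = 0.00330) and by 0.13 ± 0.045 (edgeR adjusted p = 0.0368) on the log2 scale. With the GC and length trend removed, Jak2 stood at 0.048 (edgeR adjusted p = 0.568) and at -0.037 (edgeR adjusted p = 0.645), so that neither call remained and the direction under anti-miR-501-3p turned. Socs1 and Socs3, which are induced by cytokine signals and shut JAK kinases off, had control levels of 1.41 and 1.70 CPM. Socs1 fell by 0.65 ± 0.22 and 0.67 ± 0.22 (edgeR adjusted p = 0.0372 and 0.0275), and Socs3 fell by 0.68 ± 0.24 and 0.63 ± 0.23 (edgeR adjusted p = 0.0387 and 0.0444). Ifnar2 fell by 0.25 ± 0.089 under anti-miR-501-3p (edgeR adjusted p = 0.0370). Jak2 under anti-miR-409-5p was called in all 10 fits that left out 1 library, and every other call of this list was lost without control replicate 1. Without control replicate 2 the calls of Socs1, of Ifnar2 and of Jak2 under anti-miR-501-3p were lost as well. Under anti-miR-409-5p the calls of Socs1 and Socs3 were also lost without its replicate 1, 3 or 4, and without replicate 2 of the other anti-miR. Under anti-miR-501-3p calls were also lost without its replicate 3 or 4 (Jak2), 4 (Socs1), 2, 3 or 4 (Socs3) and 1 or 4 (Ifnar2), and for Socs3 without replicate 3 of the other anti-miR. Stat2 and Irf9 did not pass: with anti-miR-409-5p first and anti-miR-501-3p after it, the values were -0.052 ± 0.045 and 0.00062 ± 0.045 for Stat2, and -0.057 ± 0.073 and -0.032 ± 0.072 for Irf9. Ifnar1, the other receptor subunit, stood at -0.021 ± 0.046 and -0.030 ± 0.046.

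Among 38 tested further interferon-stimulated genes, 1 rose and 3 fell under anti-miR-409-5p (10.5%, against 27.8% of all genes). Under anti-miR-501-3p 2 rose and 2 fell (10.5%, against 33%). The class I antigen gene H2-D1 fell under both, by 0.25 ± 0.060 (edgeR adjusted p = 0.00525) and by 0.16 ± 0.060 (edgeR adjusted p = 0.0442), while B2m, the light chain of class I molecules, rose by 0.18 ± 0.053 under anti-miR-501-3p (edgeR adjusted p = 0.0160). With the GC and length trend removed, H2-D1 stood at -0.094 (edgeR adjusted p = 0.291) and 0.00083 (edgeR adjusted p = 0.995), and B2m under anti-miR-501-3p turned to -0.061 (edgeR adjusted p = 0.557). Trim21, a cytosolic antibody receptor, fell under anti-miR-409-5p by 0.57 ± 0.16 (edgeR adjusted p = 0.0136), and by 0.65 with the GC and length trend removed (edgeR adjusted p = 0.0142). Znfx1 fell by 0.17 ± 0.054 under anti-miR-501-3p (edgeR adjusted p = 0.0189). The remaining calls fall outside the rule for named genes and were looked up after their values were seen: Rsad2 (viperin, an antiviral enzyme) rose by 0.76 ± 0.26 and H2-K1 fell by 0.33 ± 0.11 under anti-miR-409-5p, and Gbp7 rose by 0.42 ± 0.15 under anti-miR-501-3p. Rsad2 had 15 and 20 counts in control and 28, 38, 17 and 32 with anti-miR-409-5p, and its edgeR call (adjusted p = 0.0350) was lost without either control replicate and without replicate 2 or 4 of that anti-miR. The calls of B2m, Trim21, Znfx1 and H2-K1 were lost without either control replicate, that of Gbp7 without control replicate 1, and that of H2-D1 under anti-miR-409-5p without control replicate 2. Calls were also lost without anti-miR-501-3p replicate 2 (Znfx1), replicate 2, 3 or 4 (Gbp7) and replicate 3 or 4 of either anti-miR (H2-K1). H2-D1 under anti-miR-501-3p was called in 3 of the 10 fits that left out 1 library.

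Among 10 tested NF-kB and inflammatory genes, 1 rose and 1 fell in each comparison (20%, against 27.8% and 33% of all genes). Rela, the p65 subunit of NF-kB, fell by 0.32 ± 0.061 (edgeR adjusted p = 0.00108) and by 0.33 ± 0.060 (edgeR adjusted p = 0.000640), and was called in all 10 fits that left out 1 library in each comparison. Ptgs2, the inducible cyclooxygenase, which neurons also express with activity, rose by 0.32 ± 0.10 (edgeR adjusted p = 0.0307) and by 0.37 ± 0.10 (edgeR adjusted p = 0.0108), and both calls were lost without either control replicate, the first also without anti-miR-409-5p replicate 4. With the GC and length trend removed, Rela stood at -0.14 and -0.12 and Ptgs2 at -0.0073 and 0.0026, none of them called. Vcam1 (0.094 ± 0.050 and 0.016 ± 0.050) and Relb (-0.13 ± 0.11 and -0.18 ± 0.11) did not pass.

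**Figure D4:**
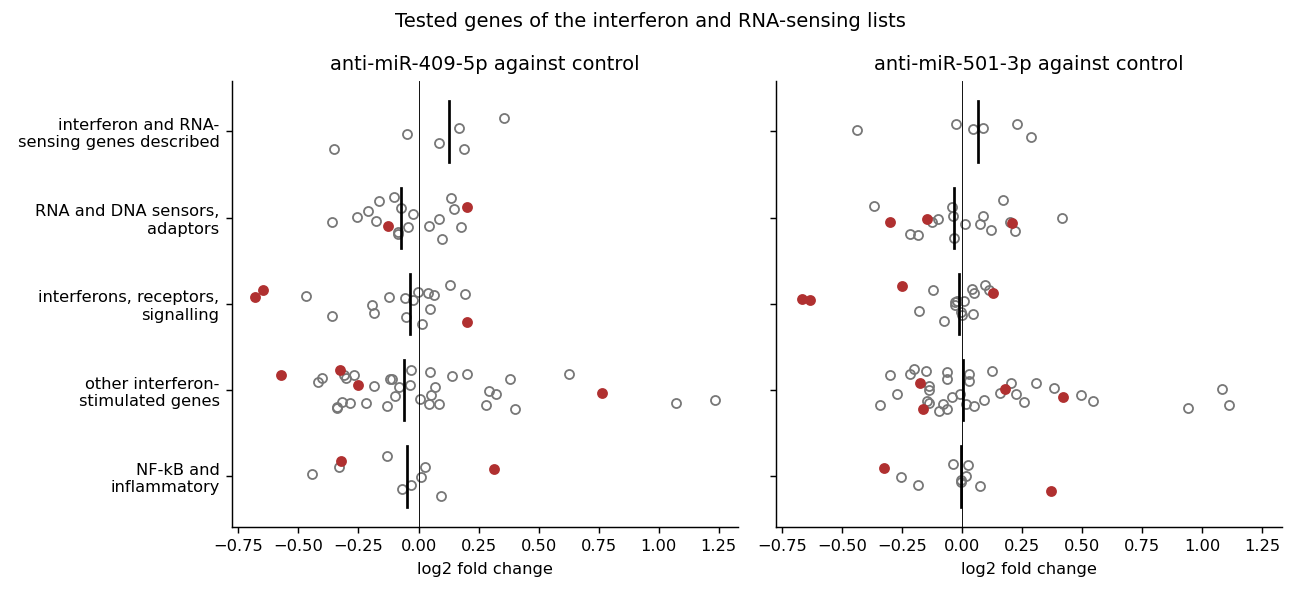
Log2 fold change of each tested gene by list (rows, with vertical scatter for legibility) under each anti-miR against control, with filled points for genes called at an edgeR adjusted p of 0.05 and a black bar at each list's median. None of the 6 tested interferon and RNA-sensing genes described is filled, and the 4 lists below hold 11 filled points under anti-miR-409-5p and 13 under anti-miR-501-3p, on both sides of 0.

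The comparison tables that the authors deposited hold Tlr3 with a log2 fold change of 0.18 and an adjusted p of 0.407 for anti-miR-409-5p. For anti-miR-501-3p the authors' deposited table gives 0.23 and 0.261. Ifitm3 has an adjusted p of 0.913 in the authors' deposited table for anti-miR-501-3p. The other genes have no adjusted p in either of the authors' deposited tables, Ifit1 is listed in neither and Ifit3 in that for anti-miR-409-5p.

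Within groups, the genes whose log2 CPM followed each tested gene most closely over the 10 libraries were sought among about 12810 genes with a mean log2 CPM of at least 1. The nearest by Pearson's r was Cd44 for Tlr3 (0.97), Caln1 for Ifih1 (0.97), Sh3glb2 for Isg15 (0.99), Frg2f1 for Oasl2 (0.96), Ppp4c for Ifitm3 (0.96) and Gm36445 for Bst2 (0.92). The next 2 were Naf1 and Rasgrf2 for Tlr3, Naa20 and A830011K09Rik for Ifih1, Grik5 and Homer3 for Isg15, Gjd2 and Gm14584 for Oasl2, Map3k3 and Cdca4 for Ifitm3, and Sash1 and Klhl3 for Bst2. None of these genes belongs to the pathway lists. Each r is the highest of many over 10 libraries that also differ in depth and GC trend, and is a description. Among the 6 genes themselves r ran from -0.64 (Oasl2 with Bst2) to 0.67 (Oasl2 with Ifih1), with pairs of both signs.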

How the data were processed

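Polyadenylated RNA was sequenced in 10 libraries (TruSeq RNA kit v2, which does not mark strand, 50 bp single-end reads), per the labels' protocols. The submitters' processing notes name build mm10, the aligner STAR 2.5.2b, featureCounts, Subread (1.5.1) and FastQC (0.11.5). The annotation release, strand setting and handling of multi-mapping reads are not given in the sources used here. For each library the authors deposited a table of raw counts by Ensembl identifier. The authors also deposited 2 comparison tables with log2 fold changes, standard errors and test statistics (a score), p-values and normalized signal per library, per the file headers, and the tool is not stated there.

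The members and lists were chosen with earlier results of these data known. Symbols, lengths, GC and UTRs came from GENCODE M21 (GRCm38, the same assembly as mm10), and 48349 of 48709 genes had a symbol. Genes were filtered with filterByExpr, leaving 16884, scaled by TMM and tested with edgeR 4.0.16 (quasi-likelihood, robust, two-sided, Benjamini-Hochberg, threshold 0.05) in R 4.3.3, in a model of the 3 groups over all libraries, without covariates. The standard error is the size of the log2 fold change divided by the root of F. Genes under the filter got a ratio of summed counts with an exact 95% interval. The scripts were tested on simulated data. Named genes were all 9 members, up to 4 tested genes of smallest p per list, 8 fixed pathway genes, of which 1 is not reported here, and the 3 nearest genes to each member.

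Alternatives were DESeq2 1.42.0, other scalings and filters, only the groups compared, a replicate block, a GC and length trend removed by splines, 1 surrogate variable (sva 3.50.0) and leaving out each library. Same-numbered libraries of the anti-miR groups deviated together, with r of 0.375, 0.164, 0.121 and 0.306 for replicates 1 to 4. Pairs of unlike number ran from -0.333 to 0.177, so some exceeded a same-numbered pair. The labels name no pairing, so these groups may be paired. The main test leaves this out, and the replicate block allows for it. Control shares only 2 numbers with the anti-miR groups and was not treated as paired in the main test. The replicate block, where used, spans all 10 libraries, so each control library shares a block with the same-numbered anti-miR libraries. Library totals are given with the baseline levels, and at these depths genes with under about 10 counts carry wide intervals.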

Additional observations from a re-analysis of the deposited data

Results flagged for a closer look

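Ifih1 under anti-miR-501-3p held 1 library far from the others. Replicate 2 was at 0.815 CPM (24 counts), and the other 3 libraries were between 0.306 and 0.382 CPM. The gap to the nearest library was 0.850 of the group's whole range, above Dixon's 95% critical value for 4 libraries, and chance flags about 1 in 20 groups. The rule was applied to each of the 9 genes in both anti-miR groups, and this was the only group flagged. Without that library the log2 fold change against control was -0.43 (edgeR adjusted p = 0.429), and Ifih1 was not called with or without it.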

How the results depend on the processing

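None of the genes tested was called in any of the 3 comparisons under the alternatives run: 20 for Tlr3, Ifih1, Oasl2, Bst2 and Ifitm3, and 16 for Isg15, which was under the filter in the others. Ifit1, Ifit3 and Irf7 were tested with no filter only, and DESeq2 against control gave an adjusted p for Tlr3 and Ifitm3 alone. These alternatives include the fits that left out 1 library each, in which a lone control library is assumed to vary like the other groups. Of the alternative log2 fold changes of the 6 tested genes, 317 kept their direction and 31 reversed, none of them past the threshold in either setting. With the GC and length trend removed, Tlr3 turned to -0.15 (anti-miR-409-5p) and -0.14 (anti-miR-501-3p), Ifitm3 to 0.075 (anti-miR-409-5p) and Oasl2 between the anti-miRs to -0.0037. With the replicate block as well, Tlr3 was at -0.16 and -0.14 and Ifitm3 under anti-miR-409-5p at 0.20. With the replicate block alone, Ifitm3 under anti-miR-409-5p was at 0.095 and Ifih1 under anti-miR-501-3p at 0.034, and the pathway lists had 10 and 10 calls. With 1 surrogate variable, Oasl2 was at -0.15 and -0.22, and under anti-miR-409-5p Ifih1 was at -0.045 and Ifitm3 at 0.24. Scaling by total counts put Ifitm3 under anti-miR-501-3p at -0.0056. The cause of these reversals was not tested.

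Leaving out 1 library at a time, log2 fold changes that reversed under anti-miR-409-5p ranged from -0.0077 to 0.20 (Oasl2), from -0.026 to 0.95 (Ifih1) and from -0.19 to 0.032 (Ifitm3). Under anti-miR-501-3p they ranged from -0.036 to 0.20 (Oasl2), from -0.43 to 0.56 (Ifih1) and from -0.016 to 0.12 (Ifitm3). Between the anti-miRs they ranged from -0.21 to 0.086 (Isg15), from -0.098 to 0.13 (Oasl2), from -0.10 to 0.010 (Tlr3) and from -0.039 to 0.22 (Bst2).

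Of the pathway lists, 11 genes (anti-miR-409-5p) and 13 (anti-miR-501-3p) were called, against 8 and 8 with DESeq2, 2 and 1 with the GC and length trend removed, 2 and 2 with the replicate block as well, and 0 and 1 with 1 surrogate variable. Leaving out 1 library gave 3 to 12 and 1 to 15 calls. Over all genes, 4696 and 5579 were called, against 1272 and 1704 with the GC and length trend removed, 1294 and 1836 with the block as well, 1097 and 810 with 1 surrogate variable, and 1302 and 1800 without control replicate 1. Between the anti-miRs, 0 genes were called in all, against 252 with the replicate block, 189 with the block and the GC and length trend removed, 42 with no filter, 8 with 1 surrogate variable, 3 with DESeq2, and 1 each with only the groups compared, with the GC and length trend removed and without either control replicate. The block changed no call of the 6 tested genes. Against control it left these pathway genes without a call: Socs1 (adjusted p = 0.0829 under anti-miR-409-5p and 0.0657 under anti-miR-501-3p), Socs3 (0.101 and 0.124), and under anti-miR-501-3p also Gbp7 (0.118), H2-D1 (0.0870) and Eif2ak2 (0.0876). The level per kb changed by more than its control SD with the principal transcript for Irf7, Oasl2, Ifih1, Tlr3 (1.22) and Bst2 (1.31). With 2 control libraries, and 2 to 33 counts per library in 7 of the 9 genes (all but Tlr3 and Ifitm3), small changes could not be detected. Larger changes also remain possible in these genes, up to a 2.88-fold rise of Ifit3 under anti-miR-409-5p on counting error alone.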

Other observations

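Levels within families of interferon-stimulated genes were uneven at baseline; the genes here were picked after their values were seen. Ifit2, of the same family as Ifit1 and Ifit3, had 179 and 181 counts in the control libraries and a level of 1.58 ± 0.058 CPM per kb (SD, n = 2), against 0.0649 for Ifit1 and 0.0880 for Ifit3. Ifitm2, of the family of Ifitm3, was at 2.55 CPM per kb and Ifitm1 at 0.0936. Oasl1 and Oas1a, related to Oasl2, had 0 counts in both control libraries. Cmpk2, a mitochondrial nucleotide kinase that is often induced together with Rsad2, was at 6.95 CPM per kb, against 0.139 for Rsad2.

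Class I antigen genes were among the most abundant of the listed interferon-stimulated genes in control. B2m stood at 33.7 CPM per kb, H2-D1 at 17.0 and H2-K1 at 9.14, while the immunoproteasome subunit genes Psmb8 and Psmb9 stood at 0.127 and 0.818. Neither Ifit2 (log2 fold change of 0.14 ± 0.096 with anti-miR-409-5p and 0.16 ± 0.095 with anti-miR-501-3p) nor Cmpk2 (0.043 ± 0.062 and 0.12 ± 0.062) passed edgeR's test, with adjusted p of 0.292 and 0.221 for Ifit2 and 0.659 and 0.138 for Cmpk2.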
